A study of Saccharomyces cerevisiae with 6 samples.

Results

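The genes described here encode the thiol peroxide system of budding yeast, Saccharomyces cerevisiae: the sulfiredoxin SRX1, the peroxiredoxins TSA1, TSA2, AHP1, PRX1 and DOT5, the thioredoxins TRX1 and TRX2, the thioredoxin reductase TRR1, and YAP1, the transcription factor of the peroxide response. They were chosen by name, with earlier results of these data known. All 10 of 10 were found among 5449 genes measured, each by 1 probe set of a type made for a single transcript. The study set a strain whose only histone H4 difference given in the labels is R45H, arginine 45 changed to histidine, beside WY139, its wild-type strain, and hybridised 3 arrays for each. Cells of both strains came from mid-log cultures in YPD (rich, with glucose) at an optical density of 0.5 to 0.7, and no oxidant or other agent is named. R45H is known as a Sin substitution, of a class found because it lets some promoters work without the remodeller SWI/SNF. The question was which transcripts change when a single residue of the H4 core domain is altered.

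Peroxiredoxins reduce hydrogen peroxide and organic peroxides with a reactive cysteine, and thioredoxin then returns that cysteine to its reduced state, drawing electrons from NADPH through thioredoxin reductase. At high peroxide the cysteine of a typical 2-Cys peroxiredoxin is over-oxidised to a sulfinic acid, which sulfiredoxin repairs at the cost of ATP. In yeast, Tsa1 and Ahp1 are abundant cytosolic enzymes made in unstressed cells, Tsa2 is a close paralog of Tsa1 known to be induced by peroxide, Prx1 works in mitochondria and Dot5 in the nucleus. Yap1 is controlled mostly through its own oxidation and retention in the nucleus, not through its transcript level, and it is known to drive SRX1, TSA1, TSA2, AHP1, TRX2 and TRR1.

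Values are MAS5 signals, linear intensities deposited for each probe set, and mean signals per array ran from 277 to 287. The substitution leaves the H4 transcript in place, so the level of the HHF1 probe set (1197 ± 30.8 in wild type, 1173 ± 96.1 in H4R45H, SD, n = 3) is no check of the labels. Median signals were 148 to 151 in wild type and 159 to 163 in H4R45H. Differences below are H4R45H minus wild type on the log2 scale from limma, fitted across the 5716 probe sets together, and genes with a Benjamini-Hochberg adjusted p under 0.05 count as called. The strains differed widely, so a call alone sets no gene apart: 66.2% of all genes were called, 37.1% higher and 29.1% lower, and over all genes the log2 difference had a median of 0.05. Differences also varied with signal. The dimmest 10% of genes had a median of 0.71 and the brightest 10% one of -0.18. The labels do not say whether replicates were separate cultures, so p-values reflect only how much these arrays vary, which may be technical variation. The number of arrays limits the precision, and in bulk RNA a change in cell make-up and a change per cell cannot be told apart.

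Of the 10 genes, 5 rose in H4R45H (SRX1, TSA2, PRX1, DOT5 and YAP1), 2 fell (TRX1 and TRR1) and 3 did not pass the test (TSA1, AHP1 and TRX2). The share called, 7 of 10, was near that of all genes. In size, SRX1, TSA2 and PRX1 rose by at least 1.5-fold, as did 18% of all genes. These 3 rose by 2-fold or more, as did 8.88% of all genes. Of the genes that fell, 0 did so by 1.5-fold, against 4.29% of all genes. The 10 were chosen with earlier results of these data known, so setting their shares beside those of all genes is no test of the group. The signals of the 2 strains did not overlap for the 7 called genes and overlapped for the other 3, against no overlap for 71.5% of all genes (39.8% higher and 31.6% lower). The median log2 difference of the 10 was 0.21.

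**Figure D1:**
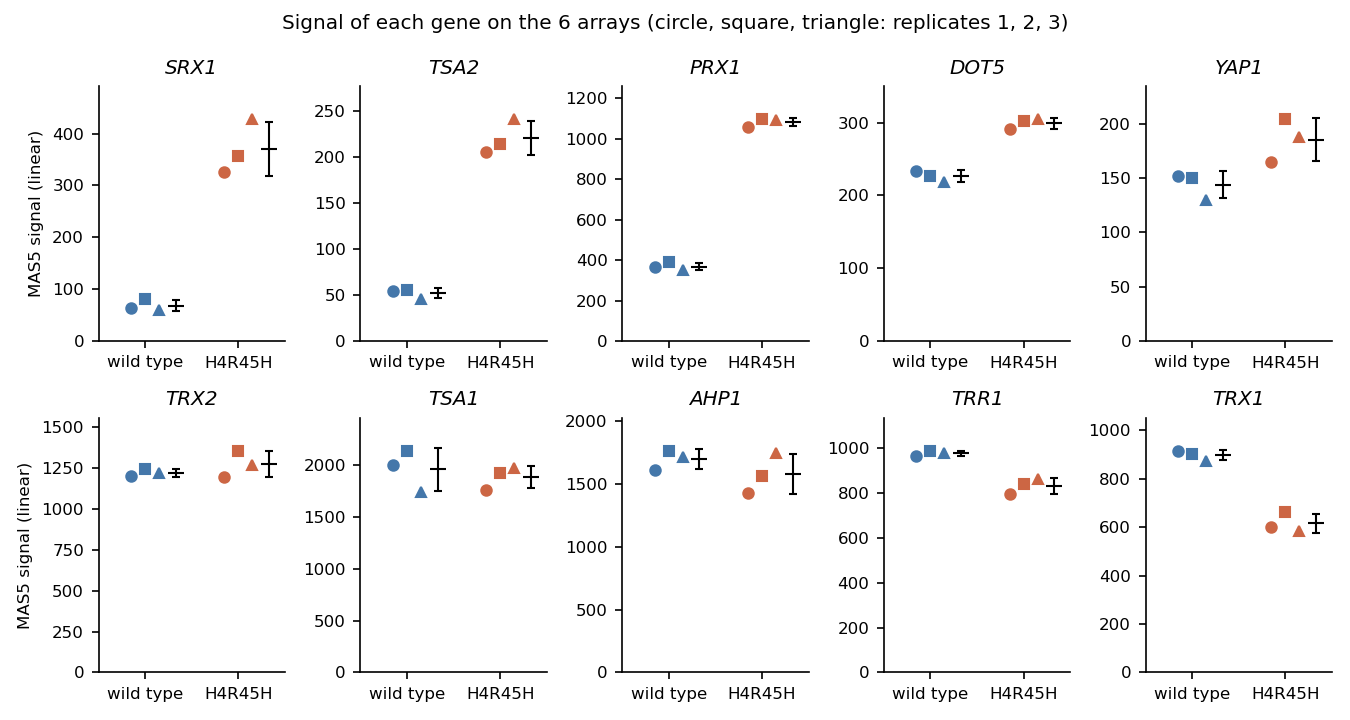
Linear MAS5 signal (y axis, from 0, a scale of its own in each panel) of each gene on the 3 wild-type arrays (blue) and the 3 H4R45H arrays (orange); circles, squares and triangles are replicates 1, 2 and 3, and black bars are the mean ± SD. SRX1, TSA2 and PRX1 lie far apart between the strains, while the points of TRX2, TSA1 and AHP1 overlap.

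SRX1 (YKL086W), the sulfiredoxin, had the largest rise of the 10 genes. Its signal was 63.5, 81.0 and 60.2 on the wild-type arrays and 325.9, 357.5 and 427.5 on the H4R45H arrays. Every H4R45H array was at least 4 times above the highest wild-type array. The log2 difference was 2.44 (SE 0.12, limma adjusted p = 1.1e-07), a 5.44-fold rise that only 22 of the 5449 genes exceeded. Genes in the same 10% class of mean signal had a median log2 difference of 0.00, and 30.7% of them were higher.

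TSA2 (YDR453C), the inducible cytosolic peroxiredoxin, rose 4.25-fold. Its signal was 54.5, 55.2 and 45.9 in wild type and 205.4, 213.9 and 240.8 in H4R45H, with no overlap. As for SRX1, replicate 3 was the lowest of the wild-type arrays and the highest of the H4R45H arrays. The log2 difference was 2.09 (SE 0.093, limma adjusted p = 5.9e-08), larger than that of 98.8% of genes, and genes of like signal had a median of 0.12 with 40.4% higher. With a pseudocount of 50 the log2 differences shrank to 1.83 for SRX1 and 1.41 for TSA2, since their wild-type signals are near that constant, and both calls remained.

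TSA1 (YML028W), the paralog of TSA2 that supplies most cytosolic peroxiredoxin in unstressed yeast, did not pass the test. Its signal was 2003.0, 2140.5 and 1737.5 in wild type and 1765.6, 1929.6 and 1971.9 in H4R45H, so the strains overlapped throughout. The log2 difference was -0.05 (95% interval -0.21 to 0.11, limma adjusted p = 0.56). The interval leaves out a change as large as that of TSA2, though these signals are close to the top of the scale (the highest signal of an array was 1919 to 2339), where a compressed response could understate a difference. That compression was not tested. Genes in the brightest 10% had a median log2 difference of -0.18, and 65.7% of them were called lower.

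AHP1 (YLR109W), the peroxiredoxin that prefers organic peroxides, also stayed without a call. Its signal was 1610.3, 1761.8 and 1712.6 in wild type and 1423.5, 1563.0 and 1745.1 in H4R45H. The strains overlapped through H4R45H replicate 3, and the log2 difference was -0.11 (95% interval -0.26 to 0.04, limma adjusted p = 0.18). Without H4R45H replicate 3 it was -0.18 and called (adjusted p = 0.017), and after median centring it was -0.21 and called (adjusted p = 0.029), against adjusted p of 0.017 to 0.58 over all alternatives. Under quantile or cyclic loess normalization the differences of TSA1 and AHP1 turned positive, between 0.07 and 0.15, and TSA1 was called higher under cyclic loess (adjusted p = 0.037, against 0.037 to 0.98 over all alternatives).

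The peroxiredoxins of other compartments rose. PRX1 (YBL064C), the mitochondrial 1-Cys peroxiredoxin, had signals of 363.6, 389.7 and 351.3 in wild type and 1057.8, 1097.0 and 1094.4 in H4R45H. The H4R45H arrays lay within a narrow band far above wild type. The log2 difference was 1.56 (SE 0.054, limma adjusted p = 2.2e-08), a 2.94-fold rise larger than that of 96.3% of genes. Genes of like signal went the other way on balance, with a median of -0.11 and 23.7% higher.

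DOT5 (YIL010W), the nuclear peroxiredoxin, rose less. Its signal was 234.3, 227.4 and 218.3 in wild type and 291.1, 301.9 and 304.8 in H4R45H, again with no overlap. The log2 difference was 0.40 (SE 0.058, limma adjusted p = 1.5e-04), 1.32-fold, while genes of like signal had a median of -0.07.

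The 2 cytosolic thioredoxins, which share the task of reducing peroxiredoxins, ribonucleotide reductase and PAPS reductase, differed from each other. TRX1 (YLR043C) fell: its signal was 916.1, 903.2 and 874.7 in wild type and 602.5, 661.9 and 585.4 in H4R45H. Every H4R45H array was below every wild-type array, with a log2 difference of -0.54 (SE 0.056, limma adjusted p = 1.4e-05), lower than all but 5.40% of genes. TRX2 (YGR209C), the thioredoxin gene under Yap1 control, had signals of 1197.8, 1244.5 and 1215.8 in wild type and 1196.4, 1354.7 and 1267.8 in H4R45H. These overlapped, and the log2 difference was 0.06 (95% interval -0.05 to 0.17, limma adjusted p = 0.31). TRX2 was called higher after quantile normalization (0.22) and cyclic loess (0.23), with adjusted p of 7.3e-04 and 5.6e-04 against 5.6e-04 to 0.82 over all alternatives, and was at -0.04 after median centring.

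TRR1 (YDR353W), the cytosolic thioredoxin reductase that passes electrons from NADPH to both thioredoxins, fell slightly. Its signal was 966.9, 989.1 and 977.5 in wild type and 794.1, 841.2 and 862.7 in H4R45H. The strains did not overlap, and the log2 difference was -0.23 (SE 0.047, limma adjusted p = 0.0014). That is close to the median of -0.18 for the brightest 10% of genes, and the call was lost after cyclic loess normalization (-0.08, adjusted p = 0.11, the highest over all alternatives, the lowest being 2.8e-04).

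YAP1 (YML007W), whose product activates several of these genes under peroxide, rose 1.29-fold. Its signal was 151.8, 150.2 and 129.9 in wild type and 164.4, 204.1 and 187.5 in H4R45H. The lowest H4R45H array lay just above the highest wild-type array. The log2 difference was 0.36 (SE 0.093, limma adjusted p = 0.0056), against a median of 0.00 for genes of like signal. Transcript level does not report the activity of Yap1, which was not measured.

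**Figure D2:**
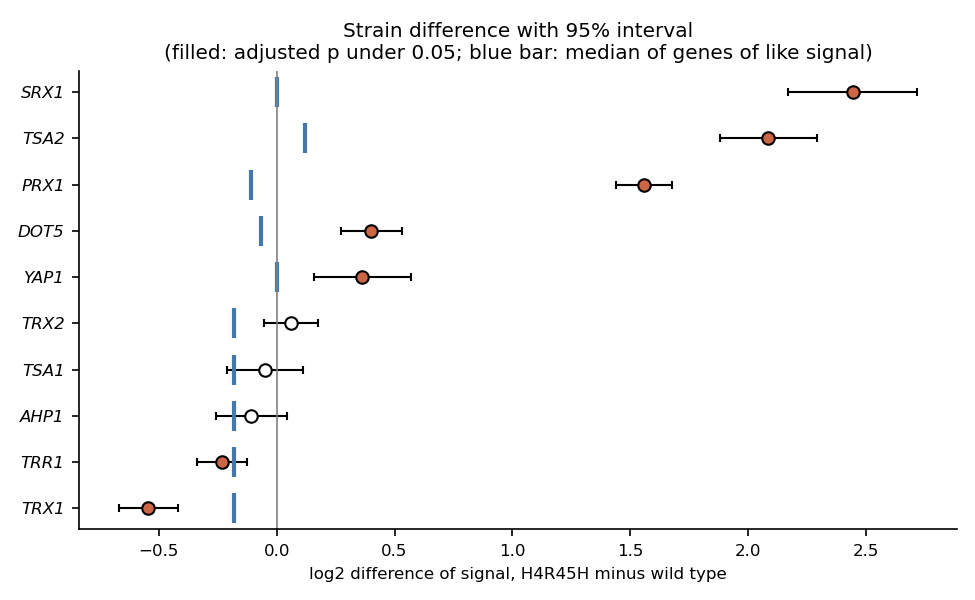
Log2 difference of signal, H4R45H minus wild type (x axis), for each gene with its 95% interval; filled points were called by limma, open points were not, and the blue bar is the median of the genes in the same 10% class of mean signal. SRX1, TSA2 and PRX1 stand at 2.44, 2.09 and 1.56, far right of their blue bars, and TRX1 at -0.54 stands left of its bar.

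By size, the differences fell into an order: SRX1, TSA2, PRX1, DOT5, YAP1, TRX2, TSA1, AHP1, TRR1 and TRX1. The 95% intervals of SRX1 (2.17 to 2.72) and TSA2 (1.88 to 2.29) overlap, as do those of DOT5 (0.27 to 0.53) and YAP1 (0.16 to 0.57), and the lower end of YAP1 meets the upper end of TRX2. The interval of PRX1 (1.44 to 1.68) touches neither neighbour. The intervals of TRX2, TSA1 and AHP1 overlap each other, and those of TSA1 and AHP1 overlap the interval of TRR1 (-0.34 to -0.13). The interval of TRX1 (-0.67 to -0.42) lies below that of TRR1.

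Differences between genes within an array do not depend on how that array was scaled by a constant, so they were used to set the inducible genes against the others. Here 7 genes (TSA1, AHP1, PRX1, DOT5, TRX1, TRX2 and TRR1) were classed as constitutive. This is a working label, since Yap1 is known to drive TSA1, AHP1, TRX2 and TRR1 as well, and PRX1 rose. The mean log2 signal of SRX1 and TSA2 minus that of these 7 genes was -3.83, -3.70 and -3.95 on the wild-type arrays. On the H4R45H arrays it was -1.78, -1.80 and -1.58. The inducible genes thus gained 2.11 on the log2 scale over the constitutive ones, 4.32-fold, on all 3 arrays. The exact permutation test over the 20 splits of the arrays gave p = 0.10 two-sided, the smallest that 3 against 3 arrays allow, and 0.10 after adjustment over the 5 contrasts tested. That test could not pass 0.05 for any of the 5 contrasts. The genes were also chosen with earlier results of these data known, so these p-values decide nothing here. Without PRX1, left out after its values were seen, the gain was 2.34.

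Within the paralog pairs the gains were unequal too. TSA2 gained 2.14 on the log2 scale over TSA1, from -5.24 ± 0.039 in wild type to -3.10 ± 0.070 in H4R45H (SD, n = 3; exact permutation p = 0.10). TRX2 gained 0.60 over TRX1, from 0.44 ± 0.048 to 1.05 ± 0.064 (SD, n = 3; exact permutation p = 0.10), a shift made up mainly of the fall of TRX1 as deposited. The gain of TRX2 over TRX1 was 0.57 to 0.68 over all alternatives run on it, although the separate differences of the pair moved with the scaling. The gain of SRX1 over TSA1, whose product it repairs, was 2.49 (exact permutation p = 0.10), and that of the inducible genes over YAP1 was 1.90 (exact permutation p = 0.10). For each of the 5 contrasts, every H4R45H array lay above every wild-type array. SRX1 and TSA2 are dimmer than the genes they are set against, so differences that vary with signal enter these gains. The gain of TSA2 over TSA1 was 1.75 after quantile normalization, 1.81 after cyclic loess and 1.45 with a pseudocount of 50. In the same order, that of SRX1 over TSA1 was 2.16, 2.27 and 1.88. That of the inducible genes over YAP1 was 1.81, 1.84 and 1.34.

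**Figure D3:**
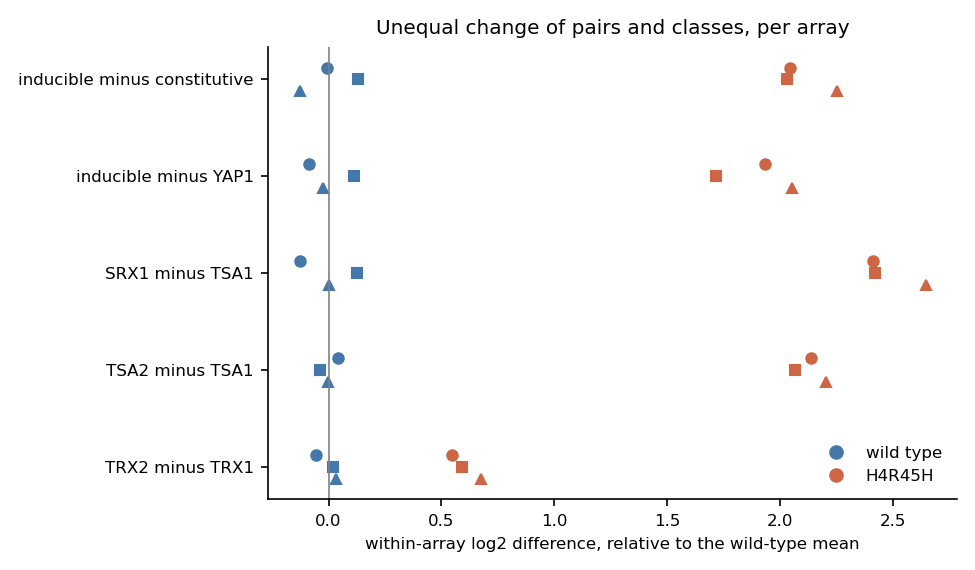
Within-array log2 differences between classes or pairs of genes (x axis, relative to the mean of the wild-type arrays) for the 5 contrasts; each point is an array, blue for wild type and orange for H4R45H, with the symbol giving the replicate. The H4R45H arrays lie 2.11 to the right on average for inducible minus constitutive genes and 0.60 for TRX2 minus TRX1.

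SRX1, TSA2 and PRX1 kept their direction and their call under every alternative run here. Their log2 differences ranged from 1.83 to 2.57, from 1.41 to 2.13 and from 1.44 to 1.69. DOT5 (0.30 to 0.46), YAP1 (0.26 to 0.45) and TRX1 (-0.65 to -0.40) kept both as well, except under the minimum of 1.5-fold, which none of these 3 reached as deposited. Quantile normalization moved the median of all genes from 0.05 to -0.07, and median centring moved it to -0.05, so values under them are relative to a lower centre.

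**Figure D4:**
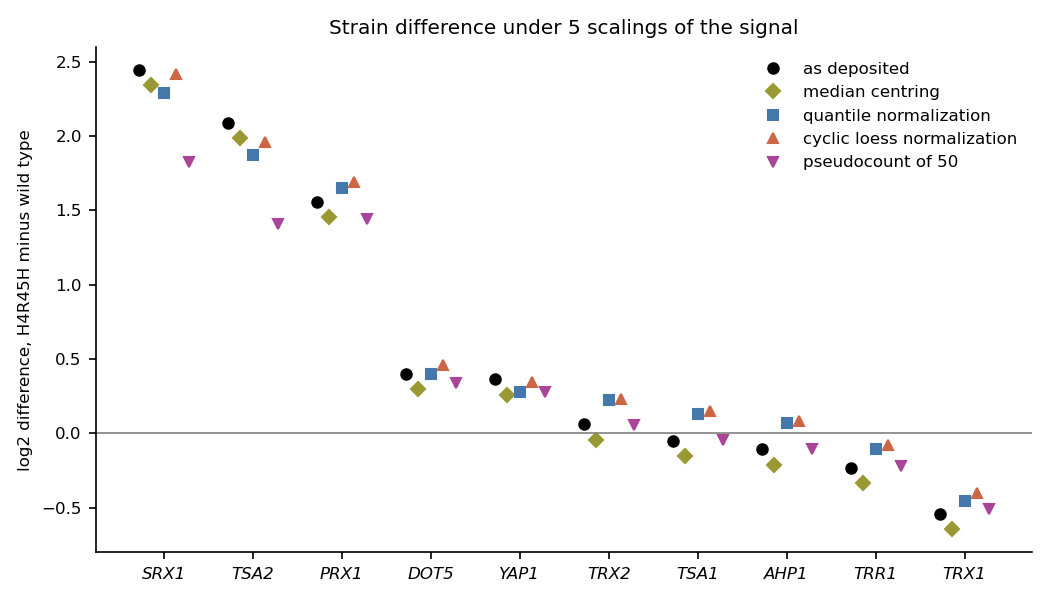
Log2 difference of signal, H4R45H minus wild type (y axis), for each gene as deposited and under median centring, quantile normalization, cyclic loess normalization and a pseudocount of 50. SRX1, TSA2 and PRX1 stay above 1.4 under all of these, while TRX2, TSA1 and AHP1 change sign with the scaling.

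The genes around this system were read from 7 lists that together hold 67 measured genes, of which 36 rose and 10 fell, with a median log2 difference of 0.27. Each count below is to be read against all genes, of which 37.1% were higher and 29.1% lower with a median of 0.05, and against the dimmer genes, which were higher more often. In the glutathione and glutaredoxin system, the second thiol route of the cell, 11 of 18 rose and 3 fell (median 0.34). GRX8, a glutaredoxin, rose 2.48-fold, and the glutathione transferases GTT2, ECM4 and GTO1 rose 2.18-fold, 2.09-fold and 1.92-fold. GTO1 is dim, and genes of like signal had a median of 0.39 with 62.2% higher. Its log2 difference, 0.94 as deposited, was 0.48 after quantile normalization, 0.55 after cyclic loess and 0.48 with a pseudocount of 50, each called. The enzymes that make and recycle glutathione, picked after their values were known, were split. GSH1, the first enzyme of synthesis, had overlapping strains and was called higher by 0.19 on the log2 scale (limma adjusted p = 0.031), a call lost after median centring (0.09) and on leaving out replicates 1 or 2 of wild type, or replicates 2 or 3 of H4R45H (0.16 to 0.17, adjusted p = 0.077 to 0.12, against 0.0079 to 0.29 over all alternatives). The synthetase GSH2 fell from 313 ± 15.3 to 192 ± 2.27 (SD, n = 3; log2 difference -0.71, limma adjusted p = 3.6e-06), and the reductase GLR1 fell by 0.38 on the log2 scale (limma adjusted p = 7.6e-05).

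Other enzymes that remove peroxide and superoxide were split. Of 9 measured, 5 rose and 2 fell, with a median of 0.30. There were 3 higher without the dimmest 25% of probe sets, a filter that removed CTA1 and GPX1 from the fit. There was 1 lower after quantile or cyclic loess normalization, without the variance trend, without wild type replicate 2 or without H4R45H replicate 1. GPX1, a phospholipid hydroperoxide peroxidase, rose 3.26-fold, from 27.7 ± 5.45 to 89.5 ± 6.86 (SD, n = 3). The peroxisomal catalase CTA1 rose 2.39-fold, the cytosolic catalase CTT1 2.16-fold and the mitochondrial superoxide dismutase SOD2 1.39-fold. CTA1 and GPX1 are dim: genes of like signal had median log2 differences of 0.71 and 0.39, with 64% and 62.2% higher. The log2 difference of CTA1, 1.25 as deposited, was 0.68 after quantile normalization and 0.54 with a pseudocount of 50, and that of GPX1, 1.71 as deposited, was 1.25 and 0.84, with every one of these called. In the mitochondrial thioredoxin system, which serves Prx1, the reductase TRR2 rose 1.98-fold (limma adjusted p = 1.4e-06), whereas TRX3 had a log2 difference of 0.10 (adjusted p = 0.26). TRR2 rose while its cytosolic counterpart TRR1 fell, and PRX1 rose while TSA1 and AHP1 had no call. Other genes did not follow such a split: the cytosolic TSA2 and CTT1 rose too, and TRX3 had no call. The fall of TRR1 was close to the median of genes of like signal and lost its call after cyclic loess (-0.08). A difference between compartments was not tested.

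Among 7 genes for enzymes that take electrons from thioredoxin, 5 rose and 1 fell, with a median of 0.30. Of these genes RNR1, RNR2, RNR3 and RNR4 encode subunits of ribonucleotide reductase and are not separate enzymes. RNR3, the damage-inducible large subunit of ribonucleotide reductase, rose 2.50-fold. MET16, the PAPS reductase of sulfate assimilation, rose 1.69-fold, the mitochondrial methionine sulfoxide reductase MXR2 1.68-fold and the small subunit RNR2 1.23-fold. MET16 is dim (50.2 ± 2.81 in wild type, SD, n = 3), and genes of like signal had a median of 0.39 with 62.2% higher. MXR1, the other methionine sulfoxide reductase, picked after its values were known, fell by 0.26 on the log2 scale (limma adjusted p = 0.0048). Of 8 genes of NADPH supply, 4 rose and 0 fell by limma (median 0.13), with 0 lower at an unadjusted p under 0.05 and with ALD6, the cytosolic acetaldehyde dehydrogenase, called lower after median centring (-0.22) and without H4R45H replicate 3 (-0.19). The 4 that rose were GND2 (4.56-fold), the minor isoform of phosphogluconate dehydrogenase, IDP2 (3.02-fold), the cytosolic isocitrate dehydrogenase, YEF1 (2.49-fold), an NADH kinase, and POS5 (1.21-fold), the mitochondrial NADH kinase. With a pseudocount of 50 the log2 difference of IDP2 shrank from 1.59 to 0.97 and that of YEF1 from 1.32 to 0.40, and YEF1 was at 0.50 after quantile normalization and 0.66 after cyclic loess. Genes of like signal to YEF1 had a median of 0.71 as deposited. The call of POS5 was lost under 9 of 15 alternatives. The main oxidative enzymes ZWF1 and GND1 had log2 differences of -0.09 and -0.03 without a call.

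Other known targets of Yap1 moved in both directions. Of 16 measured, 9 rose, 2 fell and 5 had no call, with a median of 0.37. AAD6, an aryl-alcohol dehydrogenase of a family of near-identical copies whose probe set may share signal with them, rose 3.63-fold, and GTT2 and ECM4 rose as above. FRM2, a dim gene, rose 2.07-fold, and its log2 difference of 1.05 was 0.68 after quantile normalization and 0.58 with a pseudocount of 50. ATR1, a multidrug transporter of the plasma membrane picked after its values were known, fell from 155 ± 3.04 to 80.8 ± 2.09 (SD, n = 3, log2 difference -0.94, limma adjusted p = 8.2e-07). GLR1 was the other that fell. Among 15 regulators of oxidative stress genes, differences were small: 5 rose, 3 fell and 7 had no call, within -0.29 to 0.36 on the log2 scale. This split moved with the processing: 1 was higher and 10 lower after quantile normalization, and 1 was higher and 4 lower after cyclic loess. Without wild type replicate 1, 1 was lower. Without the dimmest 25% of probe sets 1 was higher, because that filter removed YBP1, STB5, YAP5 and YAP6 from the fit. HYR1, the peroxidase that senses peroxide for Yap1, rose 1.23-fold, from 509 ± 15.1 to 628 ± 26.3 (SD, n = 3). YAP6, STB5 and YBP1 were called higher by 0.36, 0.32 and 0.31 as deposited, and all 3 had the opposite sign after quantile and cyclic loess normalization. SKN7, a factor that acts with Yap1 at several of these promoters and was picked after its values were known, fell by 0.29 on the log2 scale (limma adjusted p = 0.0029).

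**Figure D5:**
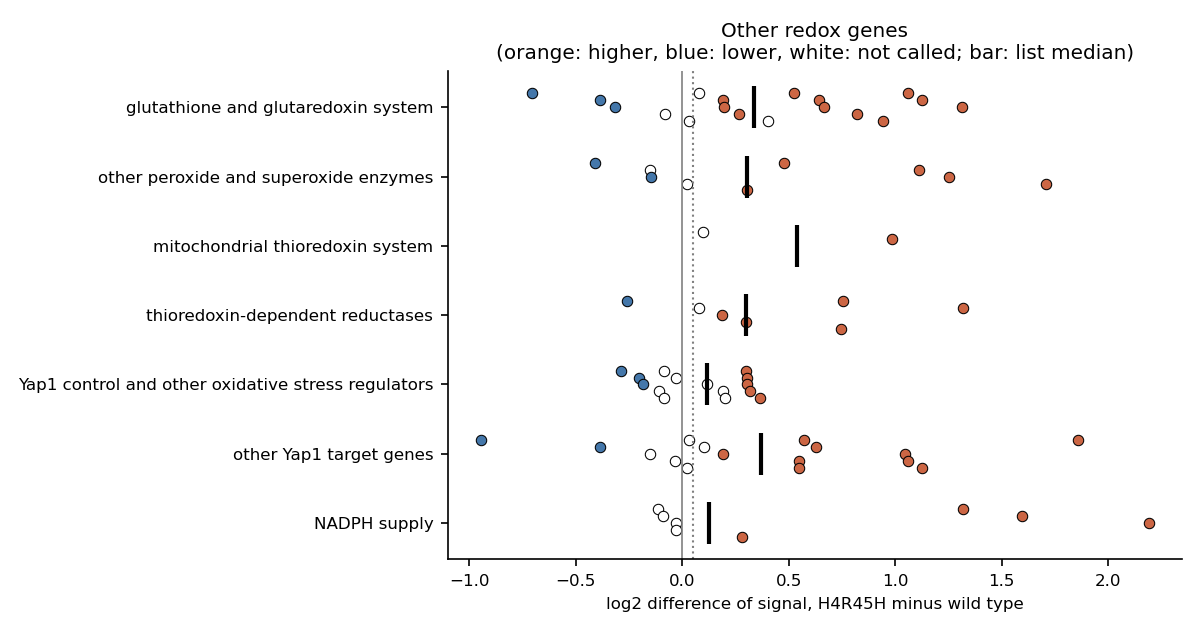
Log2 difference of signal, H4R45H minus wild type (x axis), of each measured gene in the 7 lists; orange genes were called higher, blue lower and white not called, black bars are list medians, and the dotted line is the median of all genes (0.05). Most lists hold genes on both sides of 0, and the regulators stay within -0.29 to 0.36.

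The genes whose values over the 6 arrays lay closest to those of SRX1, each gene centred on its own mean and restricted to genes above the lowest 25% of signal, were HBT1, GND2, VPS73, BIO4 and FMP45. Their root mean square distances were 0.13 to 0.17 on the log2 scale, and they were 4.52-fold to 5.02-fold higher. For TSA2 they were GND2, the cell wall genes FLO1 and PIR3, AAD10 and the glutamate decarboxylase GAD1, at distances of 0.074 to 0.12. GND2 was near both. With a pseudocount of 50 the log2 differences of HBT1, VPS73 and FMP45 shrank to 1.60, 1.70 and 1.43. Those of GND2, BIO4, FLO1, AAD10 and GAD1 shrank too, to 1.63, 1.86, 1.60, 1.54 and 1.63. This is a description over 6 arrays in which the strain difference makes up most of each pattern.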

How the data were processed

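The authors deposited linear intensities, 1 signal for each probe set, made with MAS5 per the submitters' processing notes. The MAS5 version, its scaling target and its detection calls are not given in the sources used here. Groups came from the labels. Of 5716 probe sets, 5498 had 1 gene, 0 several and 218 none in the platform annotation, and Entrez identifiers gave current RefSeq symbols (5449 genes, all matched). Where a gene had several probe sets, the brightest by mean log2 signal was used. From the deposited signals log2 values were taken with no further scaling, 7 values at 0 being set to 0.1. limma 3.58.1 in R 4.3.3 (lmFit, eBayes with trend) tested the strains two-sided, and p-values were adjusted by Benjamini-Hochberg across every probe set. The fit was tested on simulated data in which few probe sets changed, unlike these data, so that test is no check of the number of genes called. The genes and lists were chosen with earlier results of these data known. Of each list, up to 4 called genes were named by size, and the 5 genes most like SRX1 and TSA2 by distance. AAD16, a listed gene, and promoter motifs were not analysed here. Alternatives were 3 normalizations, a pseudocount of 50, filters on dim and on multi-transcript probe sets, no variance trend, the replicate block, a minimum of 1.5-fold, the mean of probe sets, and leaving out each array. No genome sequence was used. The order of genes along the chromosomes came from RefSeq start positions, and no coordinates are given.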

Additional observations from a re-analysis of the deposited data

How the results depend on the processing

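With a minimum of 1.5-fold, 3 of the 10 genes were higher and 0 lower, 20 list genes were higher and 2 lower, and 979 of all genes were higher and 234 lower. The 0 follows from the size limit, since limma alone called 2. After cyclic loess normalization 1 of the 10 genes was lower, and after quantile normalization 16 list genes were lower. Without the dimmest 25% of probe sets, where fewer genes are tested, 1232 genes were higher. As deposited 2022 genes were higher and 1583 lower, against 1464 and 2006 after quantile normalization, 1651 and 2105 after median centring and 1673 and 1654 after cyclic loess. The gain of inducible over constitutive genes was 1.81 after quantile normalization, 1.88 after cyclic loess, 1.48 with a pseudocount of 50 and 2.34 without PRX1, an alternative chosen after seeing the data, and 2.04 to 2.17 when single arrays were left out.

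Signs turned for TSA1 (0.13 after quantile normalization, 0.15 after cyclic loess, and between -0.13 and 0.016 when single arrays were left out, positive without wild type replicate 2), AHP1 (0.071 and 0.081 under the same normalizations) and TRX2 (-0.043 after median centring). They also turned for STB5 (-0.25 and -0.15), YAP6 (-0.21 and -0.12) and YBP1 (-0.10 and -0.019) after quantile and cyclic loess normalization, and for PPN1, which was not called (0.056 after cyclic loess, and between -0.043 and 0.025 when single arrays were left out, positive without replicate 3 of either strain). The cause was not tested. POS5 lost its call without wild type replicate 3 (0.14) and without any single H4R45H array (0.25 to 0.30).

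Same-numbered arrays did not deviate together (correlations -0.03 to 0.03 across probe sets), and 0 of 3 wild-type arrays correlated best with the H4R45H array of its number. With the replicate block 5 of the 10 genes were called higher and 2 lower, as without it, and 1956 and 1524 of all genes. Whether bright signals such as those of TSA1 and AHP1 are compressed is not known, and dim signals depend on the floor and background of MAS5.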

Other observations

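The nearest measured genes along the chromosome were looked up for each of the 10 genes after seeing the data. Of 20 such neighbours 7 were called higher and 10 lower, with a median log2 difference of -0.13, beside 37.1% higher, 29.1% lower and a median of 0.05 over all genes. CYT2 and MDH1, on either side of SRX1, rose by 0.35 and 0.34 on the log2 scale (limma adjusted p = 9.6e-04 and 0.0017), against 2.44 for SRX1. PPN1 and GUK1, on either side of TSA2, had -0.01 (adjusted p = 0.87) and -0.26 (adjusted p = 3.6e-04), against 2.09 for TSA2. The largest differences among the 20 were those of AFB1 beside TRX1 (1.57), EST3 beside DOT5 (-0.65) and SEF1 beside PRX1 (0.60). AFB1 rose while TRX1 fell, EST3 fell while DOT5 rose, and SEF1 and PRX1 both rose.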
